A study of Mus musculus with 14 samples.

Results

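The genes described here are 10 costimulatory and checkpoint molecules of antigen-presenting cells, out of 21205 genes in the table: Cd40, Cd80, Cd86, Cd83, Cd274, Pdcd1lg2, Cd70, Icosl, Cd200 and Tnfrsf4. They were chosen by name, with earlier results of these data known, and all 10 were in the table. They were followed in 555 single cells that the sort had taken as cDC1 (conventional dendritic cells of type 1, which take up dead cells and cross-present their antigens to CD8 T cells) from YUMM1.7 melanomas, a mouse melanoma line grown subcutaneously in female mice. Each of 14 plates held the cells of 1 tumour of 1 mouse and is 1 replicate. The labels name 4 genotypes: Irf1_FF (called Irf1 control here; 4 plates, 165 cells), Irf1_dXCR1 (Irf1-deleted; 5 plates, 223 cells), Ikbkb_FF (Ikbkb control; 1 plate, 34 cells) and Ikbkb_dXCR1 (Ikbkb-deleted; 4 plates, 133 cells). The labels do not spell these names out; they are read here as controls with a floxed gene and as mice that lose it in cells expressing XCR1, so a cell that never expressed XCR1 would keep it. IRF1 is a transcription factor that interferons induce, and Ikbkb codes for IKKβ, a kinase that activates NF-κB. All Irf1 mice, control and deleted, were 6 weeks of age. In the Ikbkb genotypes the control and deleted replicates 1 and 2 were 8 weeks of age, and deleted replicates 3 and 4 were 6 weeks. The Irf1 and Ikbkb genotypes came from different experiments, so a difference between the pairs and a difference between experiments cannot be told apart.

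A T cell that meets its antigen needs a further signal from the presenting cell. CD80 and CD86 give it through CD28 and, through CTLA-4, can also restrain it. CD70, ICOS ligand and the TNF receptor family member CD40 act in other costimulatory exchanges, CD40 by receiving the CD40 ligand signal of helper T cells. PD-L1 (Cd274) and PD-L2 (Pdcd1lg2) bind the inhibitory receptor PD-1, and CD200 binds an inhibitory receptor of myeloid cells. Dendritic cells that mature in a tumour gain the chemokine receptor CCR7, which guides them to the lymph node, and are known to carry stimulatory and inhibitory molecules at the same time.

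Promoters of 6 of the 10 genes were found in the RefSeq table of build GRCm38.p6, and 3 of them are shown because the results below turn on these genes: the PD-1 ligand genes Cd274 and Pdcd1lg2, which are neighbours on chromosome 19, and Icosl, which had the smallest difference in the share of positive cells between Ccr7+ and Ccr7- cells. Each is the forward strand just before the RefSeq start, 250 bases long except for Icosl, where it stops at the earlier start of the GENCODE annotation. Lower case is plain sequence, and capitals mark a match to the NF-κB motif on either strand.
Icosl: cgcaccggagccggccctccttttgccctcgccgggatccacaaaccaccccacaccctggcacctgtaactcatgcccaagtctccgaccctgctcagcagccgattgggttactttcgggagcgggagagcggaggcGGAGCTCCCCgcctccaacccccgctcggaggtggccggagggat
Cd274: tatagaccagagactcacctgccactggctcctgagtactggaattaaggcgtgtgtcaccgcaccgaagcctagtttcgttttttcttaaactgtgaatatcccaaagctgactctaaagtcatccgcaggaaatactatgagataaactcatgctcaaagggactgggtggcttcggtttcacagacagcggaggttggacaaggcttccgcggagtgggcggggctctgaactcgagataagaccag
Pdcd1lg2: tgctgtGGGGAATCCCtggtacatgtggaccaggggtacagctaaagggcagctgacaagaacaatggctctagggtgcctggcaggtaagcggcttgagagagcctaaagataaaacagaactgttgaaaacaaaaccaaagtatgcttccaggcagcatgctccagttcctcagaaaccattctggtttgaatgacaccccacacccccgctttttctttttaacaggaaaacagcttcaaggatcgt
The Icosl stretch is chr10:78069118-78069301, the Cd274 stretch chr19:29367188-29367437 and the Pdcd1lg2 stretch chr19:29410669-29410918. The Icosl match lies at bases -111 to -102 and the Pdcd1lg2 match at bases -244 to -235, counted back from the RefSeq start. The NF-κB motif was found within 250 bases in 2 of the 6 promoters and in 7.25% of all 32851 promoters in the table. The core of the interferon-stimulated response element, GAAA then 2 bases of any kind then GAAA, was in 0 of the 6 and 2.98% of all. The STAT motif GAS, TTCNNNGAA, was in 0 of the 6 and 7.02% of all. A match describes the letters in this window and is not evidence of binding.

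A plate had 18 to 59 cells. Its total was 2810321 to 10120557 UMIs (unique molecular identifiers, which count molecules rather than reads), and the median cell had 143476 UMIs from 1578 genes. A UMI of Ccr7 divided the cells into 170 Ccr7+ and 385 Ccr7- cells. Of the Ccr7+ cells, 134 had 10 or more Ccr7 UMIs and 36 had 1 to 9. Maturation markers moved with this division: the summed level of 10 mature dendritic cell markers was 2986 to 14061 counts per 1000000 UMIs (CPM) in the Ccr7+ cells of a plate and 107 to 1005 CPM in the Ccr7- cells. The summed level of 10 cDC1 markers was 1423 to 4384 CPM in Ccr7+ and 3169 to 6758 CPM in Ccr7- cells. In the sort, the median MHC class II staining was higher in Ccr7+ cells on 11 of 11 plates with values. Cells with 3 or more markers of another cell type numbered 154, from 3.85% to 67.4% of a plate, and the highest share was in Irf1 control replicate 1. The targeted genes were still seen: Irf1 had a UMI in 34.9% to 45.1% of the cells of Irf1 control plates and in 13.5% to 36.7% of Irf1-deleted plates, which overlap, and Ikbkb in 35.3% of Ikbkb control cells and 22.2% to 47.1% of Ikbkb-deleted cells. Counting was at the 5′ end, so reads from outside a deleted part would still be counted.

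Of the 10 genes, 7 were higher in Ccr7+ than in Ccr7- cells of the same plates: Cd40, Cd86, Cd83, Cd274, Cd70, Cd200 and Tnfrsf4. The changes ran from 2.26-fold for Cd86 to 34.0-fold for Cd200, leaving out Cd70 and Tnfrsf4, whose Ccr7- sums were at or near 0. Cd200 also had Ccr7- values near 0 on some plates, so its 34.0-fold is a fitted size. Its plate medians were 552 CPM in Ccr7+ and 47.0 CPM in Ccr7- cells. Cd80, Pdcd1lg2 and Icosl had higher medians in Ccr7+ cells and did not pass the test. Cells with 5 or more of the 10 genes made up 61.2% of Ccr7+ cells (104 of 170) and 5.97% of Ccr7- cells (23 of 385). The test was edgeR's quasi-likelihood test on UMIs summed over the Ccr7+ and the Ccr7- cells of each of 13 plates with at least 5 cells of each kind, with the plate as a block and Benjamini-Hochberg adjustment over all genes tested. It called 433 of 6307 genes (6.87%), of which 172 were higher in Ccr7+ cells (2.73%) and 261 lower (4.14%). The median log2 fold change was -1.03 over all genes and 3.11 over the 10. Values above 0 were found for 23.0% of all genes and 10 of the 10. The 10 were chosen with earlier results of these data known, so these contrasts with all genes describe the list and are no independent support. Cd70 and Tnfrsf4 entered the test mainly through their Ccr7+ counts. Their direction was thus largely set by the filter on low counts and is no separate support for these counts or the median. With no such filter, 7 of the 10 passed, beside 455 of 20830 genes. Ccr7+ cells had fewer genes per cell, with a median of 1388 against 1709, and a median of 132930 against 148177 UMIs. With each cell thinned to 20000 UMIs, which left out 7 Ccr7+ and 5 Ccr7- cells and 1 plate, the mean differences in share over 12 plates were 43.4 points for Cd40, 51.3 for Cd200 and 7.20 for Icosl, beside 40.9, 50.3 and 5.22 unthinned. For comparison, 72 Ccr7- cells with 3 or more fibroblast or endothelium markers had a median of 193184 UMIs. Cd83 was in 34.7% of these cells, Cd86 in 26.4%, Cd274 in 19.4%, Cd40 in 12.5%, and Cd200 and Icosl each in 11.1%. Cd80 was in 5.56%, Pdcd1lg2 in 4.17%, and Cd70 and Tnfrsf4 in 0% (up to 4.99%). The Ccr7- shares of Cd274 and Cd200 were not above these shares, and all Ccr7+ shares were. These 72 cells are part of the Ccr7- cells, had more UMIs, and were not shown to lack the genes. Their shares are therefore not a background level.

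**Figure D1:**
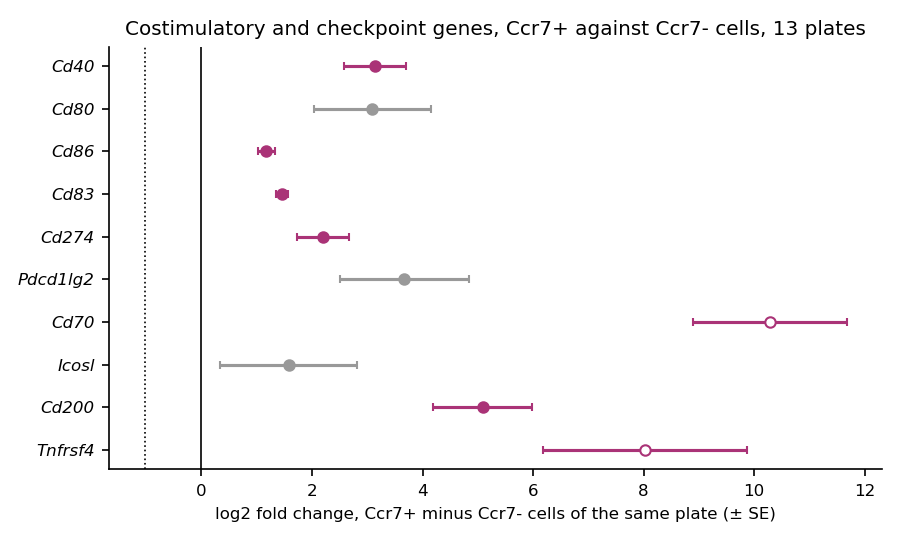
Log2 fold change of each gene in Ccr7+ against Ccr7- cells of the same plate, ± SE derived from the edgeR test on 13 plates. Purple genes passed the adjusted p threshold of 0.05 and grey ones did not, open symbols mark Cd70 and Tnfrsf4, whose Ccr7- sums were at or near 0, and the dotted line is the median of all genes (-1.03); all 10 points lie to the right of 0.

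Cd40, the receptor through which helper T cells license dendritic cells (chromosome 2, 165055627 to 165072948, forward strand, GRCm38), was higher in Ccr7+ cells on 13 of 13 plates. Its level was 626 to 2426 CPM in Ccr7+ cells (median 1083) and 0.791 to 417 CPM in Ccr7- cells (median 179). All 13 Ccr7+ values lay above all 13 Ccr7- values, and the log2 fold change was 3.14 ± 0.56 (SE; edgeR adjusted p = 0.00235). A Cd40 UMI was found in 67.6% of Ccr7+ and 24.2% of Ccr7- cells, a mean difference of 40.9 ± 15.8 percentage points (SD, n = 13 plates). The lowest Ccr7+ share, 25%, was on the Ikbkb control plate, where 2 of 8 cells were positive, and the highest, 90.9%, was on Ikbkb-deleted replicate 4.

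The CD28 ligands differed in how many Ccr7- cells carried them. Cd86 (chromosome 16, 36603869 to 36666081, reverse strand) was found in 52.7% of Ccr7- and 71.8% of Ccr7+ cells. Its level rose from 274 to 897 CPM (median 548) to 401 to 1984 CPM (median 1336), higher in Ccr7+ cells on 13 of 13 plates, with a log2 fold change of 1.17 ± 0.16 (adjusted p = 1.75e-04). This was the smallest difference among the 7 genes that passed, and Cd86 was already present in more than every other Ccr7- cell. Cd80 (chromosome 16, 38455561 to 38496335, forward strand), on the same chromosome, was found in 8.83% of Ccr7- and 37.6% of Ccr7+ cells. Its level was 0 to 69.6 CPM in Ccr7- cells (median 39.0) and 0 to 468 CPM in Ccr7+ cells (median 249), higher on 12 of 13 plates. The exception was Ikbkb-deleted replicate 1, where 0 of 5 Ccr7+ cells had a Cd80 UMI. Its log2 fold change of 3.09 ± 1.05 did not pass (adjusted p = 0.0862), and without that plate it was 3.35 with an adjusted p of 0.0266.

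Cd83, a surface molecule used as a marker of mature dendritic cells (chromosome 13, 43784775 to 43803132, forward strand), was the most widely detected of the 10. It had a UMI in 88.2% of Ccr7+ and 62.9% of Ccr7- cells. Its level was 770 to 1616 CPM in Ccr7- cells (median 1036) and 1251 to 3853 CPM in Ccr7+ cells (median 3219). The log2 fold change was 1.45 ± 0.10 with the smallest adjusted p of the 10 (2.81e-07), and Ccr7+ was higher on 13 of 13 plates. The share of positive cells was higher in Ccr7+ cells on 11 plates and lower on the Ikbkb control plate and on Ikbkb-deleted replicate 1. A UMI of 5 bases has 1024 variants, so a count near that ceiling understates the level, and the highest Cd83 count in a cell was 967.

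The PD-1 ligands lie next to each other on chromosome 19, with Cd274 at 29367455 to 29388095, Pdcd1lg2 at 29410919 to 29471161 and 22823 bases between them, both on the forward strand. Cd274 was found in 54.1% of Ccr7+ and 16.6% of Ccr7- cells. Its level was 58.9 to 1059 CPM in Ccr7+ cells (median 528) and 18.8 to 362 CPM in Ccr7- cells (median 79.2), higher on 12 of 13 plates, with a log2 fold change of 2.20 ± 0.47 (adjusted p = 0.00820). Of the 13 Ccr7+ values, 8 lay above all Ccr7- values, so the groups overlapped. Pdcd1lg2 was rarer, in 34.7% of Ccr7+ and 5.19% of Ccr7- cells. Its level was 0 to 917 CPM in Ccr7+ cells (median 179) and 0 to 186 CPM in Ccr7- cells (median 21.0), and 2 Ccr7+ and 4 Ccr7- plates had none. Its log2 fold change of 3.67 ± 1.17 did not pass (adjusted p = 0.0696), and without Irf1-deleted replicate 2, where 0 of 8 Ccr7+ cells were positive, it was 3.99 with an adjusted p of 0.0231.

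Macrophage markers moved with both PD-1 ligands among Ccr7- cells. Of 53 Ccr7- cells with 3 or more of 8 macrophage and monocyte markers, 47.2% had a Cd274 UMI and 20.8% a Pdcd1lg2 UMI. Of 257 Ccr7- cells without markers of other types, 9.73% had Cd274 and 2.33% Pdcd1lg2. Without all cells with markers of other types, the log2 fold change of Cd274 was 4.40 (edgeR adjusted p = 0.00478). That of Pdcd1lg2 was then 8.20 (edgeR adjusted p = 0.0342), a fitted size that depends on zeros. In that setting 8 of the 10 genes passed, beside 433 of all 5176 genes tested.

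Cd70 and Tnfrsf4 were rare in Ccr7- cells. Cd70, the ligand of CD27 (chromosome 17, 57145997 to 57149777, reverse strand), was found in 25.9% of Ccr7+ and 1.30% of Ccr7- cells. Its Ccr7- sum was 0 on 9 of 13 plates and 75.5 CPM at most, and its Ccr7+ level was 0 to 1106 CPM (median 320), higher on 11 plates. No Cd70 UMI was found in either kind of cell on Irf1 control replicate 1 (6 Ccr7+ cells) or Irf1-deleted replicate 4 (19 Ccr7+ cells). The difference passed with an edgeR adjusted p of 2.86e-04, but its direction was largely set by the filter on low counts. Its fitted size of 10.28 ± 1.39 depends on how zeros are treated and is not a measured fold. Among Ccr7- cells with macrophage markers, 0 of 53 had Cd70, which allows a share of up to 6.72% (exact 95% interval, for counting error only).

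Tnfrsf4, which encodes OX40 and is best known on activated T cells (chromosome 4, 156013843 to 156016612, forward strand), was found in 42.4% of Ccr7+ and 4.42% of Ccr7- cells. Its level was 153 to 1205 CPM in Ccr7+ cells (median 851) and 0 to 175 CPM in Ccr7- cells (median 0.267). It was higher in Ccr7+ cells on 12 of 13 plates, and the difference passed with an edgeR adjusted p of 0.0140. The direction was again largely set by the filter on low counts, and the fitted size (8.02 ± 1.84) depends on the zeros. The share of positive cells was higher in Ccr7+ cells on 13 of 13 plates. T cell markers were rare: 5 Ccr7+ cells had 3 or more of 8, and 4 of these 5 had Tnfrsf4. Of the 144 Ccr7+ cells without 3 or more markers of another type, 45.1% had Tnfrsf4, beside 42.4% of all Ccr7+ cells. Cells with fewer T cell markers could remain among the 144, and the part of T cells was not tested.

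Cd200 (chromosome 16, 45382135 to 45409053, reverse strand) had the widest gap in share. It was found in 60.6% of Ccr7+ and 8.83% of Ccr7- cells, a mean difference of 50.3 ± 22.2 percentage points (SD, n = 13 plates). Its level was 266 to 1162 CPM in Ccr7+ cells (median 552) and 0 to 123 CPM in Ccr7- cells (median 47.0). All 13 Ccr7+ values lay above all 13 Ccr7- values, as for Cd40, and the log2 fold change was 5.09 ± 0.90 (edgeR adjusted p = 0.00233). This is a fitted size, and some Ccr7- values were near 0. Among them were 0 CPM on Irf1-deleted replicate 3 and 0.267 CPM on Ikbkb-deleted replicate 3.

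Icosl, the ligand of ICOS (chromosome 10, 78069302 to 78083913, forward strand), had the smallest difference in share of the 10. It was found in 24.1% of Ccr7+ and 18.7% of Ccr7- cells, a mean difference of 5.22 ± 13.7 percentage points (SD, n = 13 plates) with 8 plates higher in Ccr7+ and 5 lower. Its level was 0 to 237 CPM in Ccr7+ cells (median 59.7) and 0.534 to 87.9 CPM in Ccr7- cells (median 24.5), higher on 10 of 13 plates. The log2 fold change was 1.58 ± 1.24 (edgeR adjusted p = 0.442). In level the change was thus not the smallest: Cd86 (1.17 ± 0.16) and Cd83 (1.45 ± 0.10) had smaller ones with a smaller SE. No difference was detectable at this spread, and it passed in 0 of the 24 alternative settings.

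**Figure D2:**
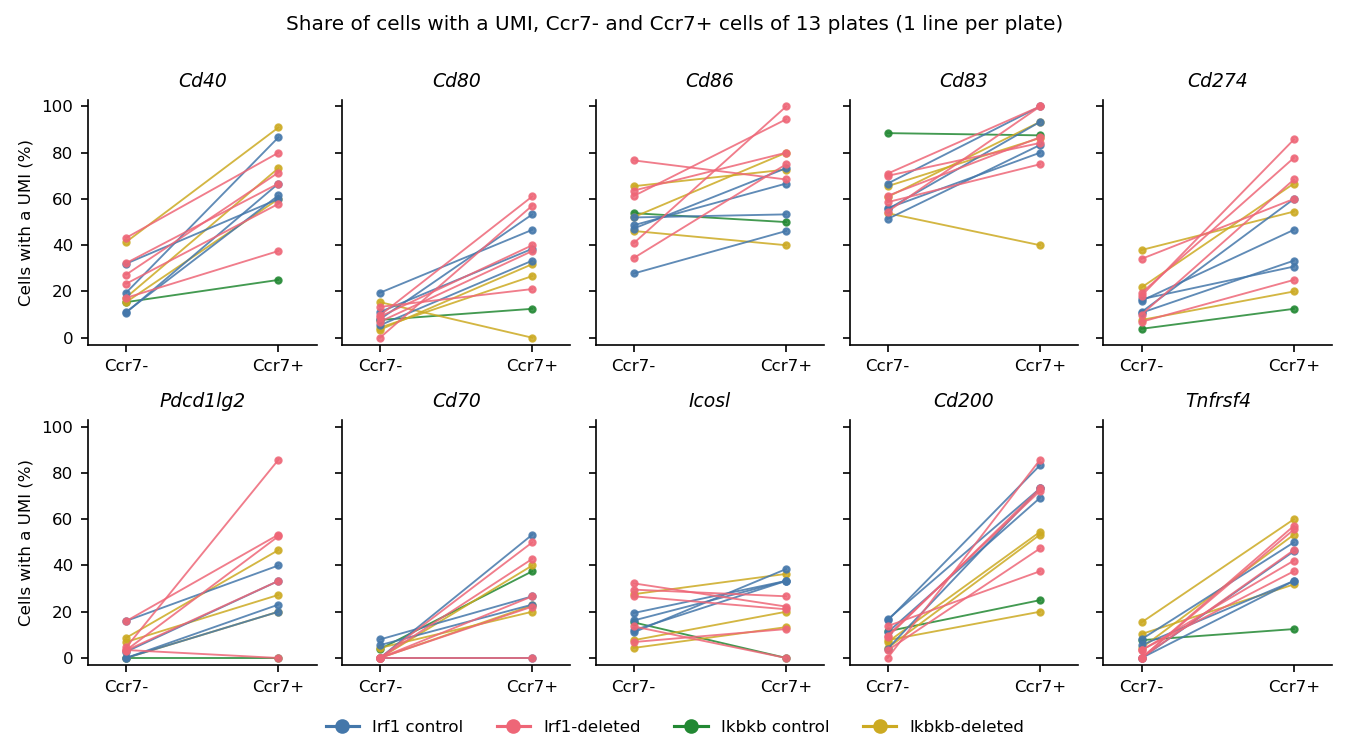
Share of cells with a UMI (%) in the Ccr7- and Ccr7+ cells of each of 13 plates, 1 panel per gene and 1 line per plate coloured by genotype. Lines rise on 13 of 13 plates for Cd40, Cd274, Cd200 and Tnfrsf4, and on 8 of 13 for Icosl.

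The experiments gave the same direction and a different number of calls. Over the 9 plates of the Irf1 genotypes, 5 of the 9 genes that could be tested passed (Cd40, Cd86, Cd83, Cd200 and Tnfrsf4). Of all 6827 genes tested there, 258 passed. Cd274 had a log2 fold change of 2.01 with an edgeR adjusted p of 0.0973. Over the 4 plates of the Ikbkb genotypes, 0 of 10 passed, although Cd40 (3.41), Cd274 (2.28) and Cd200 (4.98) had log2 fold changes of about the size seen over all 13 plates. Only 3 of 6163 genes in all were called over those 4 plates.

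A graded count of Ccr7 UMIs gave graded shares for part of the genes. Cd40 was found in 24.2% of cells with 0, 36.1% with 1 to 9 and 76.1% with 10 or more Ccr7 UMIs. For Cd80 the shares were 8.83%, 8.33% and 45.5%, and for Tnfrsf4 4.42%, 5.56% and 52.2%. In the cells with few Ccr7 UMIs these 2 shares were near the Ccr7- shares. They rest on few positive cells among 36, so an equal level was not shown. The median Ccr7+ cell had 407.5 Ccr7 UMIs, far above this group. Cd200 went from 8.83% over 19.4% to 71.6%, and Cd274 from 16.6% over 25% to 61.9%. Icosl stayed between 16.7% and 26.1%. The 36 cells with few Ccr7 UMIs had a median of 130540 UMIs and those with 10 or more a median of 134840, a similar depth.

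**Figure D3:**
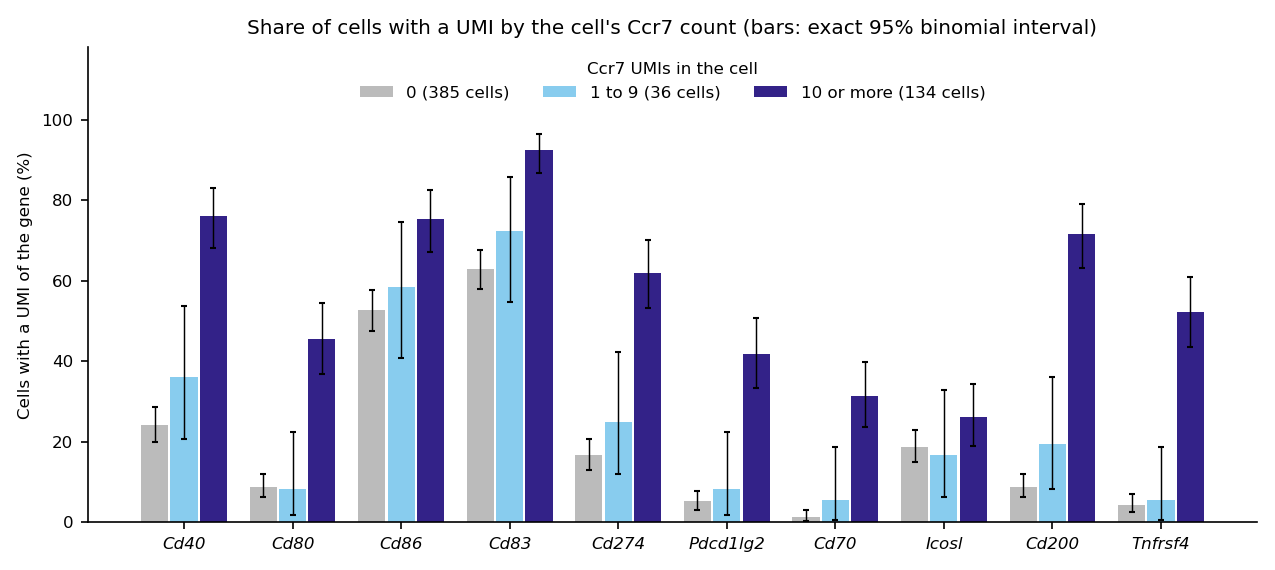
Share of cells with a UMI of each gene (%) by the cell's Ccr7 count: 0 (385 cells), 1 to 9 (36 cells) and 10 or more (134 cells), with exact 95% binomial intervals that cover counting error only. The highest bar stands at 10 or more Ccr7 UMIs for each gene, and for Icosl the 3 intervals overlap.

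Within Ccr7+ cells the genes were found together to different degrees. All 59 Ccr7+ cells with Pdcd1lg2 also had Cd83, and 78.0% of them had Cd274, while 50% of the 92 cells with Cd274 had Pdcd1lg2. Of the 44 Ccr7+ cells with Cd70, 84.1% had Cd200 and 86.4% had Cd40, but 34.1% had Pdcd1lg2 and 20.5% Icosl. Spearman correlations over the 170 Ccr7+ cells, given as a description of cells that share plates and depth, were highest for Cd40 with Cd70 (0.43) and Cd40 with Cd86 (0.38). They were 0.31 for Cd274 with Pdcd1lg2 and -0.02 for Pdcd1lg2 with Cd70. A Ccr7+ cell carried a median of 5 of the 10 genes (quartiles 3 and 7) and a Ccr7- cell a median of 2 (quartiles 1 and 3).

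**Figure D4:**
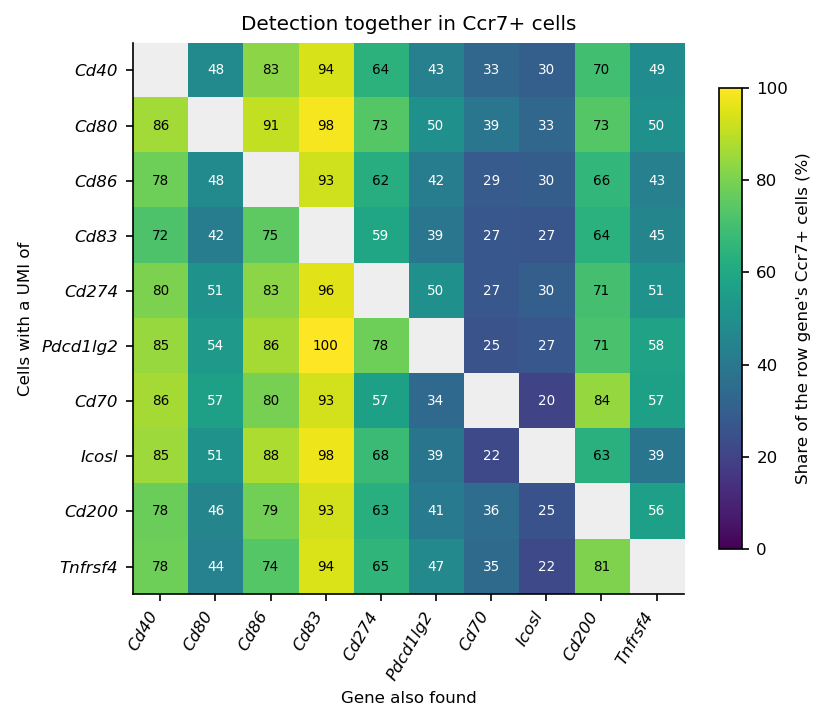
Percentage of the Ccr7+ cells with a UMI of the row gene that also had a UMI of the column gene. The Cd83 column is highest in each of the other 9 rows, up to 100% of the 59 cells with Pdcd1lg2, and the Icosl and Cd70 columns are lowest.

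The 3 genes most like each of the 10 were taken over all 555 cells. Among 4579 genes with a UMI in at least 10% of cells, Cd200 was most like Stat4 (Spearman 0.64), Ccr7 (0.61) and Samsn1 (0.60), and Tnfrsf4 most like Samsn1 (0.57), Stat4 (0.54) and Cacnb3 (0.54). Cd40 was most like the chemokine gene Ccl22 (0.51), Ccr7 (0.49) and Tnfsf9 (0.46), and Cd70 like Ccl22 (0.47), Nudt17 (0.46) and Lactb (0.45). Cd80 was most like Stat4 (0.41), Ccr7 (0.40) and Tmem39a (0.40). Cd83 was most like the TRAF adaptor gene Traf1 (0.55), Cytip (0.53) and Rab8b (0.50). The PD-1 ligands shared Bcl2a1b and Rgs1 among their nearest 3, with Tank (0.44) first for Cd274 and Ramp3 (0.44) first for Pdcd1lg2. Cd86 was most like Syngr2 (0.44), Cd40 (0.43) and Srgn (0.41), and Icosl like the peptide transporter gene Tap2 (0.27), Apobec3 (0.27) and Hdac1 (0.26), with Ccr7 at rank 2411 (0.08). These values are descriptions over cells that differ in depth, and no test was made.

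Other molecules of the same exchanges moved in part. Of 14 TNF family ligands and receptors, 5 could be tested and 2 were higher in Ccr7+ cells: Tnfsf9, the 4-1BB ligand (log2 fold change 3.01 ± 0.63, adjusted p = 0.00695), and Tnfrsf18, which encodes GITR (2.60 ± 0.64, adjusted p = 0.0199). Of 10 genes of CD40 signalling, 10 were tested, 10 were above 0 and 3 passed: Traf1 (2.30 ± 0.24, adjusted p = 1.92e-05), the NF-κB subunit gene Nfkb2 (1.86 ± 0.36, adjusted p = 0.00442) and the ubiquitin ligase gene Birc2 (2.95 ± 0.81, adjusted p = 0.0350). The list's median was 1.97, against -1.03 for all genes, and the lists too were chosen with earlier results of these data known. Of 11 further adhesion and costimulatory molecules in the table, 9 were tested and only the integrin ligand gene Icam1 passed (1.42 ± 0.23, adjusted p = 9.45e-04). Of 17 other inhibitory ligands, receptors and enzymes, 11 were tested and 0 passed, with a median of 0.13. A mixed list of 6 further genes held Cd276, Vsir, Btnl2, Btla, Tnfrsf14 and Cd160, not all of them B7 family or butyrophilin genes. Of these, 2 were tested and 0 passed. The median of -3.55 covers only these 2 and does not describe a family. Of 10 T cell partners of these molecules, such as Cd28, Icos and Pdcd1, only Cd226 had enough counts to be tested, and it did not pass.

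Between Irf1-deleted and Irf1 control plates, none of the 10 genes passed the test. CPM here are scaled within this comparison, so a plate's value differs slightly from that in the comparison within plates. With all cells, 0 of 16203 genes passed edgeR's test (0%), 1272 had an unadjusted p under 0.05 and DESeq2 called 100. In Ccr7+ cells, 0 of 11786 genes passed, 1409 had an unadjusted p under 0.05 and DESeq2 called 125; in Ccr7- cells, 0 of 15483 passed, 1292 had an unadjusted p under 0.05 and DESeq2 called 94. None of the 10 genes was among DESeq2's calls in these comparisons. The change did not depend on Ccr7 status past the test either: 0 of 10388 genes passed, 166 had an unadjusted p under 0.05, and DESeq2 called 192, none of the 10 among them. Over all cells, 8 of the 10 had a log2 fold change above 0, beside 47.3% of all genes. The median of the 10 was 0.12, beside -0.00 for all genes. Leaving out a single plate could turn the sign for Cd40, Cd80, Cd83, Cd274, Icosl and Cd200. Without cells with markers of other types, Cd40, Cd274 and Icosl were below 0. The 95% intervals were narrow for Cd83 (-0.30 to 0.57) and Cd40 (-0.78 to 0.89) and wide for Cd70 (-3.19 to 2.02), so larger changes of the rarer genes were not detectable. The share of Ccr7+ cells itself was 30.7% ± 12.3 (SD, n = 4) in Irf1 control and 29.3% ± 7.84 (SD, n = 5) in Irf1-deleted plates (two-sided exact permutation p = 0.857).

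Cd86 was the member with the clearest difference between the Irf1 groups. In Ccr7+ cells its level was 650, 1257, 388 and 1236 CPM on Irf1 control replicates 1 to 4. It was 1346, 1629, 1973, 1464 and 1635 CPM on Irf1-deleted replicates 1 to 5. Each Irf1-deleted plate thus lay above each control plate, as for 0.382% of the 11786 genes tested. This order needs counts on all 5 Irf1-deleted plates, and the 11786 include genes with counts on few plates. With only the Irf1 plates, 5757 genes could be tested, so the order may be less rare among well-detected genes. The log2 fold change was 0.87 ± 0.36 with an unadjusted p of 0.0208 and an edgeR adjusted p of 0.386. With upper-quartile scaling, which moved the median of all genes to 0.70, it was 2.52. The share of Ccr7+ cells with Cd86 was 46.2% to 73.3% in control and 68.4% to 100% in Irf1-deleted plates, which overlap. In Ccr7- cells its level was 247 to 555 CPM in control and 390 to 725 CPM in Irf1-deleted plates (0.64 ± 0.32, adjusted p = 0.507), and the change did not differ from that in Ccr7+ cells past the test (interaction 0.37 ± 0.44, adjusted p = 1). In the Ccr7+ cells of the same plates, the summed cDC1 markers were 3033 to 4384 CPM in control and 1423 to 2528 CPM in Irf1-deleted plates. The summed macrophage markers were 40.9 to 212 CPM and 112 to 1716 CPM. Their part in the Cd86 difference was not tested; without cells with markers of other types its log2 fold change was 0.82.

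For Icosl, the shares of Ccr7+ cells with at least 1 UMI did not overlap between the Irf1 groups, which was not tested, and the levels overlapped. It had a UMI in 2 of 6, 5 of 15, 5 of 13 and 5 of 15 Ccr7+ cells on Irf1 control replicates 1 to 4 (33.3% to 38.5%). The counts were 4 of 15, 1 of 8, 0 of 7, 4 of 19 and 4 of 18 on Irf1-deleted replicates 1 to 5 (0% to 26.7%). Every control share was above every Irf1-deleted share, as for 0.59% of the 4580 genes found in at least 10% of cells. Counting only cells with 10 or more Icosl UMIs, the groups overlapped: the shares were 33.3%, 20%, 30.8% and 26.7% in control and 26.7%, 12.5%, 0%, 21.1% and 22.2% in Irf1-deleted plates. In CPM the groups overlapped, at 55.6 to 132 in control and 0 to 82.2 in Irf1-deleted plates, and the log2 fold change was -0.90 ± 1.75 (adjusted p = 1). Among Ccr7- cells the order was not kept: the shares were 11.1% to 19.4% in control and 6.90% to 32.3% in Irf1-deleted plates.

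The other members overlapped between the Irf1 groups in Ccr7+ cells. Cd40 was 582, 1139, 950 and 2245 CPM in control and 1342, 1139, 919, 628 and 1029 CPM in Irf1-deleted plates, and 1 control plate, replicate 4, was the highest of all. Cd274 was 54.8, 870, 302 and 980 CPM in control and 537, 175, 704, 645 and 707 CPM in Irf1-deleted plates, so the widest spread was among the controls. Pdcd1lg2 was 100, 887, 134 and 165 CPM in control and 522, 0, 793, 430 and 255 CPM in Irf1-deleted plates. Control replicate 2 decided its comparison: the log2 fold change was 0.31 ± 0.93 with that plate and 1.59 without it (adjusted p = 0.592). Cd200 was 463 to 1123 CPM in control and 497 to 902 CPM in Irf1-deleted plates, and Tnfrsf4 was 520 to 1078 CPM and 804 to 1147 CPM. Cd83 was 1784 to 3465 and 2737 to 3798 CPM, and Cd80 71.8 to 382 and 58.9 to 442 CPM. In Ccr7- cells, Cd70 was found in 3 of 116 control and 0 of 156 Irf1-deleted cells, the latter allowing up to 2.34%, and it was 0 on 2 of the 4 control plates too, so no fold is given.

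**Figure D5:**
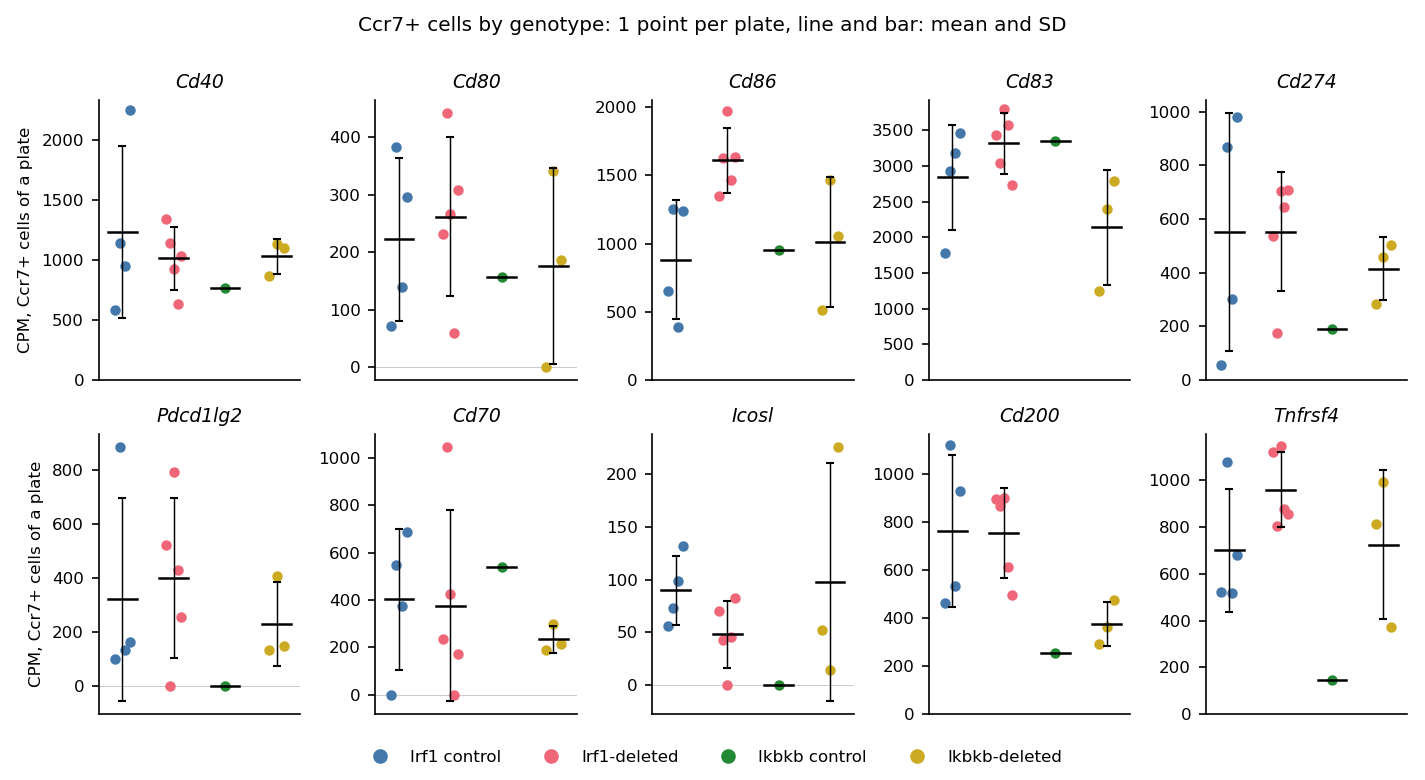
Level of each gene (CPM) in the Ccr7+ cells of each plate by genotype, 1 point per plate with the mean and SD as a line and bar, each panel on its own axis. The 5 Irf1-deleted points lie above the 4 Irf1 control points only for Cd86 (1346 to 1973 against 388 to 1257 CPM).

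The Ikbkb comparison rests on 1 control plate of 34 cells, 8 of them Ccr7+, so that plate and the control genotype cannot be told apart. In that plate Cd40 (17.6% of cells), Cd80 (8.82%), Cd274 (5.88%), Pdcd1lg2 (0%) and Tnfrsf4 (8.82%) had the lowest shares of all 14 plates, and Cd83 (88.2%) the highest. That plate was lowest for 5 of the 9 genes found in at least 10% of cells, and for 3.08% of all 4580 such genes. Over the 4 Ikbkb-deleted plates the shares were 19.2% to 62.7% for Cd40, 11.1% to 45.1% for Cd274, 3.85% to 23.7% for Pdcd1lg2 and 50% to 74.5% for Cd83. The Ccr7+ cells of the control plate had a median of 101335 UMIs, against 214879 in its Ccr7- cells, and its highest T cell marker sum of the 13 plates (957 CPM); the part of either was not tested. edgeR called 0 of 16203 genes (0%), with 707 at an unadjusted p under 0.05, and DESeq2 called 1177, of which 1 was a member, Pdcd1lg2. Pdcd1lg2 was found in 0 of 34 control cells, which allows up to 10.3%, and in 19 of 133 Ikbkb-deleted cells (14.3%). The control mouse was 8 weeks of age. On the 8-week Ikbkb-deleted replicates 1 and 2 the gene was in 1 of 18 and 1 of 26 cells. The 6-week replicates 3 and 4 had it in 9 of 38 and 8 of 51 cells, so most positive cells came from mice of another age than the control.

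Among the 4 Ikbkb-deleted plates, 6 of these 9 genes had lower shares on both plates of 8-week mice than on both plates of 6-week mice: Cd40, Cd86, Cd83, Cd274, Pdcd1lg2 and Cd200. The same order held for 15.8% of the 4580 genes, and it was looked at after the values were seen. Cd40 was in 27.8% and 19.2% of cells on the 8-week replicates 1 and 2, and in 39.5% and 62.7% on the 6-week replicates 3 and 4. Cd274 was in 11.1% and 11.5% against 39.5% and 45.1%, and Pdcd1lg2 in 5.56% and 3.85% against 23.7% and 15.7%. Cd80 was in 11.1% and 15.4% against 13.2% and 15.7%, which overlap. Ccr7+ cells made up 27.8% and 15.4% of the 8-week and 39.5% and 43.1% of the 6-week plates, and the 8-week plates held 18 and 26 cells against 38 and 51. No test was made with 2 plates an age, and the part of the Ccr7+ share was not tested.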

How the data were processed

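Single cells were index-sorted from mouse tumours onto plates, and 5′ ends were sequenced with 5-base UMIs. Per the submitters' processing notes, the authors used bcl2fastq, STAR 2.5.3a and HTSeq 0.9.1 with build GRCm38. The deposited values are UMI counts per gene and cell, not normalized, per the file itself. No cell was removed here, and no doublet caller was run; 0 wells were marked as holding several cells. The same 94 well barcodes recur on all plates by the plate layout.

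A cell was Ccr7+ with at least 1 Ccr7 UMI. Counts were summed per plate, or per plate and Ccr7 status with at least 5 cells, and tested with edgeR 4.0.16 (R 4.3.3; TMM scaling, filterByExpr, quasi-likelihood test, Benjamini-Hochberg adjusted p under 0.05). In the comparisons by Ccr7 status, Ccr7 was part of the fit and the adjustment but was left out of the counts of genes tested and called. Genotype fits used all groups to share the estimate of spread. The SE of an edgeR log2 fold change was derived from that value and the F statistic of its test, and is not a spread between plates. The 95% intervals of log2 fold changes use this SE with a normal approximation. Alternatives were DESeq2 1.42.0, limma-trend (limma 3.58.1), other scalings, filters and cell sets, and leaving out each plate. The fits were tested on simulated data. Shares of cells carry exact 95% binomial intervals (scipy 1.17.1), which cover counting error only. The 10 genes were all described; from each pathway list, up to 3 genes with the smallest adjusted p in each direction were named, and for each gene the 3 with the highest Spearman correlation. The genes and lists were chosen with earlier results of these data known. The experiment-wise and 8-week alternatives were added after seeing the data.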

Additional observations from a re-analysis of the deposited data

Results flagged for a closer look

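Of 50 groups of 4 or 5 plates examined for a plate far from the others, 3 held one, where chance alone gives about 1 in 20. Pdcd1lg2 was at 383 CPM over all cells of Irf1 control replicate 2, while the other 3 control plates were at 26.5 to 60.5 CPM. In Ccr7+ cells the same plate was at 887 CPM, against 100 to 165 CPM in the others. Icosl was at 109 CPM over all cells of Ikbkb-deleted replicate 4, while the other 3 Ikbkb-deleted plates were at 5.55 to 18.0 CPM.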

How the results depend on the processing

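In Ccr7+ against Ccr7- cells, DESeq2 called 2397 genes, Ccr7+ from 10 UMIs 1123 and limma-trend 1320. Experiment M3 alone gave 258 and experiment M2 alone 3, with 0 of the 10 genes in the last. Leaving out a plate gave 296 to 456 genes and 6 to 8 of the 10. The counts of 6, without Irf1 control replicate 3 or Ikbkb control replicate 1, came from 9 genes that could be tested. Cd80 passed in 5 and Pdcd1lg2 in 7 of 24 alternatives, and none of the 10 changed direction.

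For Irf1 in all cells DESeq2 called 100 genes; Cd80 was -0.043 and Icosl -0.0016 with limma-trend, and without cells with markers of other types Cd40 was -0.12, Cd274 -0.11 and Icosl -0.23. In Ccr7+ cells DESeq2 called 125 genes (Cd70 0.036, Cd200 0.018), upper-quartile scaling 71 (Cd40 1.45, Cd70 2.64, Icosl 0.58, Cd200 1.77), no filter 7 (Cd274 -0.00064), 10 or more Ccr7 UMIs 4 (Cd274 -0.070), at least 10 cells 2 (Cd80 -0.42, Cd274 -0.16), cells without markers of other types 3 (Cd274 -0.28, Pdcd1lg2 -0.14), and leaving out a plate 0 to 8. In Ccr7- cells DESeq2 called 94 (Cd83 -0.022); with 2 or more cDC1 markers Cd274 was -0.96 and Cd200 0.28, and without markers of other types Cd83 was -0.049 and Cd274 -0.65. For the interaction DESeq2 called 192, no filter 2, at least 10 cells 1 (Cd200 -0.011), leaving out a plate 0 to 1, and Cd80 was 0.30 with upper-quartile scaling. The Ccr7+ share differed by 0.616 points with 10 or more UMIs and by -6.94 to 2.38 points leaving out a plate. For Ikbkb DESeq2 called 1177 genes, 1 of the 10 (Pdcd1lg2); without markers of other types 1 gene was called, Tnfrsf4, which is 1 of the 10, with Cd200 at 0.23; leaving out a plate gave 0 to 1. With 8-week mice alone Cd80 was -0.45, Cd86 -0.073 and Icosl -0.15, and with all 5 control plates Cd80 was -0.029, Cd274 -0.15 and Pdcd1lg2 -0.46. The cause of these shifts was not tested.

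Leaving out a plate also turned the sign of small log2 fold changes. In all cells for Irf1, Cd40 ranged from -0.26 to 0.29, Cd80 -0.23 to 0.63, Cd83 -0.072 to 0.39, Cd274 -0.14 to 0.51, Icosl -0.29 to 0.31 and Cd200 -0.37 to 0.18. In Ccr7+ cells Cd40 ranged from -0.51 to 0.18, Cd80 -0.059 to 0.63, Cd274 -0.37 to 0.44, Pdcd1lg2 -0.092 to 1.59, Cd70 -0.97 to 0.28 and Cd200 -0.19 to 0.23. In Ccr7- cells Cd80 ranged from -0.29 to 0.75, Cd83 -0.091 to 0.24, Cd274 -0.58 to 0.58 and Tnfrsf4 -8.41 to 1.47. For Ikbkb, Cd80 ranged from -0.058 to 0.49, Icosl -0.48 to 1.53 and Cd200 -0.29 to 0.19, and for the interaction Cd80 ranged from -1.09 to 0.44 and Cd274 -0.042 to 1.65. No paired analysis was possible because the replicate numbers follow accession order and pair no plates between genotypes; Ccr7+ and Ccr7- cells were paired by plate.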
